A study of Mus musculus with 8 samples.

Results

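Bronchomotor and mediator receptors are the G protein-coupled receptors through which nerves, mast cells and vessels set airway tone and vessel leak. The 9 receptor genes described here were taken by name: the muscarinic acetylcholine receptors Chrm1, Chrm2 and Chrm3, the beta-1 adrenergic receptor Adrb1, the histamine H1 receptor Hrh1, the cysteinyl leukotriene receptors Cysltr1 and Cysltr2, the endothelin A receptor Ednra and the bradykinin B2 receptor Bdkrb2. They are 9 of the 22911 named genes with a probe on the array, and they were found by the RefSeq identifiers of 14 probes.

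Most of these receptors couple to Gq, which raises calcium through phospholipase C and contracts smooth muscle; Chrm2 couples to Gi and Adrb1 to Gs, which lower and raise cyclic AMP. Acetylcholine from the vagus nerve contracts airway muscle through Chrm3, while Chrm2 on the nerve endings holds back further release and is also the main muscarinic receptor of heart muscle. Histamine, cysteinyl leukotrienes, endothelin and bradykinin are released or formed in allergic inflammation, and each can narrow airways or make vessels leak. Methacholine, with which airway hyperresponsiveness was measured in the study, acts on the muscarinic receptors.

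Lung RNA was measured in 8 female BALB/c mice, 2 in each of 4 groups, on single-color arrays with 1 array per mouse. The mice were bought at 4 weeks of age, housed for 2 weeks and then fed freely for 70 days, and the lungs were taken on Day 70. NT mice received standard feed and no allergen. The other 3 groups were sensitized with 3 intraperitoneal injections of ovalbumin (OVA) on alum and inhaled OVA aerosol on 7 days: Ctrl-F mice ate standard feed, Cap-F mice ate feed with control carbonate apatite particles, and ODNcap-F mice ate feed with particles that enclosed a class-B CpG oligodeoxynucleotide, a ligand of Toll-like receptor 9. NT and Ctrl-F lay in the first row of the slide and Cap-F and ODNcap-F in the second, so in any comparison across rows the slide row and the group cannot be told apart. Ctrl-F against NT and ODNcap-F against Cap-F are comparisons within a row.

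Levels are log2 signals after quantile normalization over the 8 arrays, and the difference of group means is a log2 fold change. A gene with several probes is given by its brightest one. A spot counted as well above background by the scanner software's own flag. The share of probes that did so ran from 61.3% to 65.0% by array. The lowest log2 signal so flagged lay between 3.61 and 4.18. No spot was saturated. A probe past the test had a Benjamini-Hochberg adjusted p under 0.05 in a limma fit of the 8 arrays, adjusted over the 37116 probes with both arrays of some group well above background. A test by permuting 2 mice against 2 cannot go below an exact two-sided p of 0.333, so none is given.

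Of the 9 receptor genes, 8 passed the filter on dim probes. Chrm3, Adrb1, Hrh1, Cysltr1, Cysltr2, Ednra and Bdkrb2 were well above background on all 8 arrays. Chrm2 was so on the 2 NT arrays alone, so it entered the test through the group where it was high and had to differ, and it is left out of the counts below. Chrm1 had 3 probes and none passed.

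The question of Ctrl-F against NT was what sensitization and challenge did to the lung on standard feed. Of the 7 genes above background on all arrays, 3 rose (Hrh1, Cysltr1 and Cysltr2) and 4 fell (Chrm3, Adrb1, Ednra and Bdkrb2), with log2 fold changes between -1.71 and 1.80. Calls were common across the array: 22655 of 37116 probes (61.0%) were past the test, 9846 (26.5%) higher and 12809 (34.5%) lower, so a call by itself sets no receptor apart.

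The comparisons of Cap-F and of ODNcap-F with NT changed allergen and feed together, and all 3 comparisons share the same 2 NT mice, so their values are given side by side and not as separate evidence. In Cap-F against NT these 7 genes gave 3 higher and 4 lower, where 20773 of 37116 probes (56.0%) were past the test, 8926 (24.0%) higher and 11847 (31.9%) lower. In ODNcap-F against NT they again gave 3 higher and 4 lower, where 21897 of 37116 probes (59.0%) were past the test, 9337 (25.2%) higher and 12560 (33.8%) lower. The median log2 fold change of all 37116 probes against NT was -0.096 (Ctrl-F), -0.10 (Cap-F) and -0.11 (ODNcap-F), and each receptor's change was larger than this shift.

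**Figure D1:**
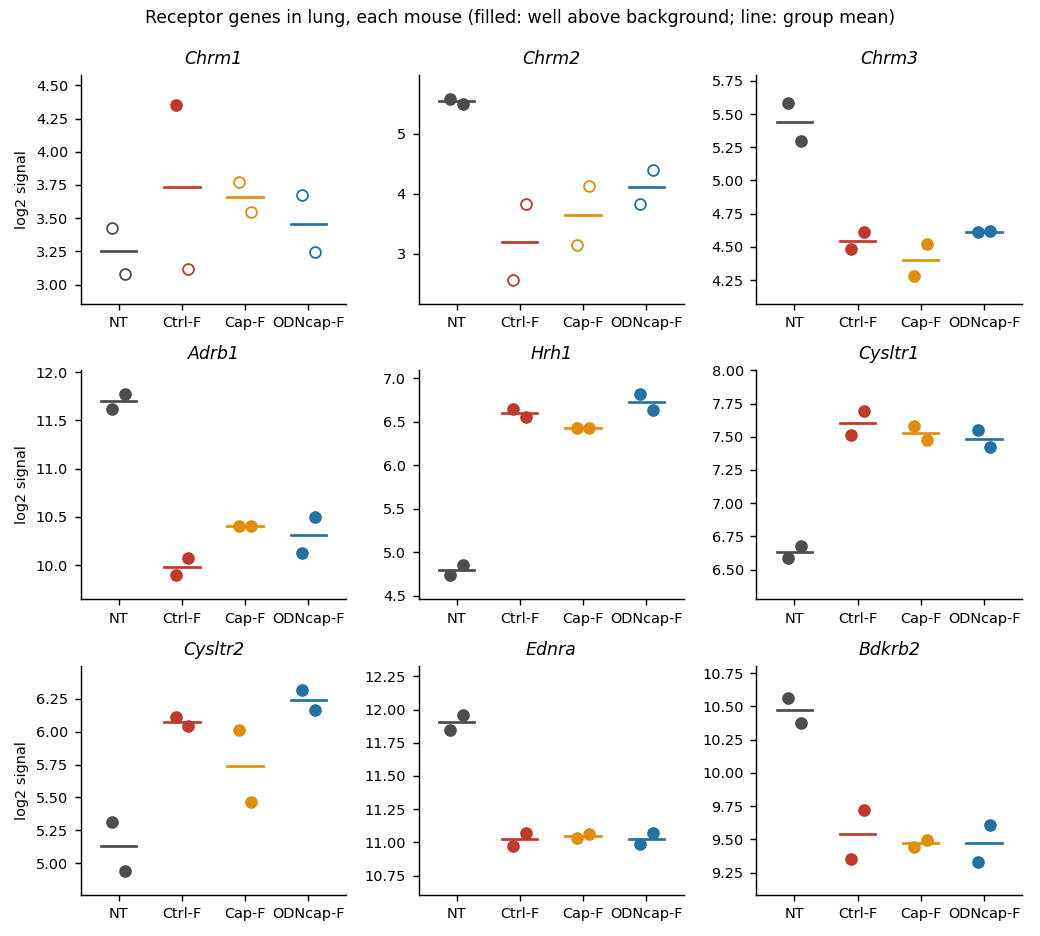
Log2 signal (y axis) of the 9 receptor genes in each mouse, by group (x axis), with filled points well above background, open points not, and a line at each group mean (n = 2). In 7 genes both NT mice lie clear of the 6 OVA mice, with Hrh1 between 4.74 and 4.86 in NT and between 6.43 and 6.82 after OVA; Chrm2 is above background in NT alone and Chrm1 in 1 mouse.

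Chrm3, the Gq-coupled receptor for vagal contraction of airway muscle and for mucus secretion, read 5.59 and 5.29 (NT), 4.48 and 4.61 (Ctrl-F), 4.28 and 4.52 (Cap-F), and 4.61 and 4.62 (ODNcap-F) on the log2 scale. Both NT mice lay above all 6 OVA mice, and the OVA groups lay close together. The order of the group means was NT (5.44 ± 0.21, SD, n = 2), ODNcap-F (4.61 ± 0.0047), Ctrl-F (4.55 ± 0.088) and Cap-F (4.40 ± 0.17), and neighbours among the OVA groups did not differ beyond their spread. Chrm3 fell by 1.86-fold in Ctrl-F (log2 fold change -0.89, 95% interval -1.21 to -0.58, adjusted p = 0.00172), with log2 fold changes of -1.04 in Cap-F (adjusted p = 0.00110) and -0.83 in ODNcap-F (adjusted p = 0.00249). The lowest Chrm3 value, 4.28 in Cap-F mouse 1, lay close to the edge of detection. With a normexp background correction, which adds an offset of 50 and compresses dim signals, the changes were -0.30, -0.31 and -0.22 and remained past the test. The call in ODNcap-F was lost with the local-pooled-error test, the test named in the study's methods (adjusted p = 0.0557, against 0.00129 to 0.0557 over the alternatives). A second Chrm3 probe was above background on no array.

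Chrm2, the Gi-coupled receptor that curbs acetylcholine release and slows the heart, read 5.59 and 5.50 (NT), 2.57 and 3.83 (Ctrl-F), 3.15 and 4.14 (Cap-F), and 3.83 and 4.39 (ODNcap-F). Both NT mice were above background and none of the 6 OVA mice was, so the order of the OVA groups carries no information. With each OVA array set to the higher of its dimmest detectable signal and its own Chrm2 signal, Chrm2 was lower by at least 2.88-fold (Ctrl-F), 2.62-fold (Cap-F) and 2.44-fold (ODNcap-F). The fit's adjusted p was 0.00791, 0.0192 and 0.0475 and is no support, for the reason given above. With normexp, which compresses dim signals, the fitted differences were smaller, at -0.54, -0.52 and -0.51, so the bounds hold for the main scale only. The call in Cap-F was lost without NT mouse 1 (adjusted p = 0.0819), NT mouse 2 (0.0731) or Cap-F mouse 1 (0.0924), over a range of 0.000375 to 0.0924 across the alternatives. The call in ODNcap-F was lost without NT mouse 1 (0.152), NT mouse 2 (0.133), ODNcap-F mouse 1 (0.188) or ODNcap-F mouse 2 (0.0768) and with no filter on dim probes (0.101), over a range of 0.000397 to 0.188.

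Chrm1, a Gq-coupled receptor of glands and ganglia, was at the edge of detection. Its brightest probe read 3.43 and 3.08 (NT), 4.36 and 3.12 (Ctrl-F), 3.77 and 3.55 (Cap-F), and 3.67 and 3.24 (ODNcap-F). Ctrl-F mouse 1 was the only one above background. A second probe read 5.21 in NT mouse 2 and was above background in that mouse alone, and the third was so in none. With the filter on, the brightest probe entered the test only when Ctrl-F mouse 2 was left out. Its log2 fold change against NT was then 1.1, from Ctrl-F mouse 1 alone. With all 8 arrays and no filter it was 0.48 (limma, adjusted p = 0.472). No direction is given for it.

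Adrb1, the Gs-coupled receptor for noradrenaline that drives heart muscle and is also found in the lung, read 11.62 and 11.77 (NT), 9.90 and 10.07 (Ctrl-F), 10.40 and 10.40 (Cap-F), and 10.13 and 10.50 (ODNcap-F). Both NT mice were above all 6 OVA mice by more than 1 log2 unit, and the 2 Ctrl-F mice were the lowest of the 6. The order of the means was NT (11.70 ± 0.11), Cap-F (10.40 ± 0.00075), ODNcap-F (10.31 ± 0.26) and Ctrl-F (9.98 ± 0.13), and Cap-F and ODNcap-F overlapped. Adrb1 fell by 3.28-fold in Ctrl-F (log2 fold change -1.71, 95% interval -2.05 to -1.37, adjusted p = 0.000202), by 2.45-fold in Cap-F (-1.29, adjusted p = 0.000644) and by 2.61-fold in ODNcap-F (-1.38, adjusted p = 0.000476). These calls held in every alternative run. The promoter window of Adrb1 (GRCm38.p6, 300 bases) was rich in G and C at 72.3%, against a median of 52.7% over 32851 windows. It is shown with the GC box and the cAMP response half-site found in it in capitals, since Adrb1 itself signals through cyclic AMP.

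Adrb1 promoter, chr19:56721867-56722166, plus strand: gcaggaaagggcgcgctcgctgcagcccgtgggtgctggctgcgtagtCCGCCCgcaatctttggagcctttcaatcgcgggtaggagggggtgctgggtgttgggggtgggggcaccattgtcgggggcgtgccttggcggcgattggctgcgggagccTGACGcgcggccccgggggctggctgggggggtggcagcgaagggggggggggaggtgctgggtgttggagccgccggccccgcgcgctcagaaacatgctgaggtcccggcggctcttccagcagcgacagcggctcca

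Mouse lung holds heart muscle cells in the sleeves of the pulmonary veins, and heart muscle is rich in both receptors. The 10 cardiomyocyte markers were well above background on all 8 arrays. Against NT, limma called 6 lower in Ctrl-F (median log2 fold change -2.64), none in Cap-F (median -1.56) and 1, Ryr2, in ODNcap-F (median -0.64). Beside them, limma called 37.4%, 35.3% and 35.6% of 15181 named genes lower in the same order. The local-pooled-error test against NT called 9 lower in Ctrl-F, and 7 lower and 1 higher in each of Cap-F and ODNcap-F. Of 15181 named genes that test called 33.2%, 30.4% and 29.3% lower in the same order. Here and below, the most abundant marker is the one with the brightest probe, which does not rank the transcripts of different genes. The summed linear signal of the 10 markers was 35356 and 17365 (NT), 5541 and 7003 (Ctrl-F), 5636 and 19221 (Cap-F), and 14689 and 22127 (ODNcap-F), with Myh6 or Myl4 the most abundant in each mouse. Cap-F mouse 1 stood with the Ctrl-F mice and Cap-F mouse 2 with NT mouse 2, so the Cap-F mice were far apart. Myh6, the heart myosin heavy chain, read 8.87 and 12.60 in the 2 Cap-F mice, while Adrb1 read 10.40 in both and Chrm2 was below background in both. In ODNcap-F, Myh6 read 12.05 and 12.85, which overlapped 13.83 and 12.62 in NT, while Adrb1 was 2.61-fold lower than in NT. The markers did not all go together: Actc1 read 10.81 and 10.60 in NT and between 10.56 and 11.27 after OVA, and Nppa read 6.73 and 6.05 in NT and 7.26 and 8.26 in ODNcap-F. Among the OVA groups limma called 0 of the 10, and the local-pooled-error test called 5 higher in Cap-F than Ctrl-F (median 0.98), 8 higher in ODNcap-F than Ctrl-F (median 1.93) and 6 higher in ODNcap-F than Cap-F (median 0.92), beside 0.784%, 0.560% and 0.507% of 15181 named genes higher in the same order, and none of the 7 tested receptors. In bulk RNA, fewer cells of a type and less RNA per cell cannot be told apart, and the part of heart muscle in the 2 receptors' values was not tested further.

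**Figure D2:**
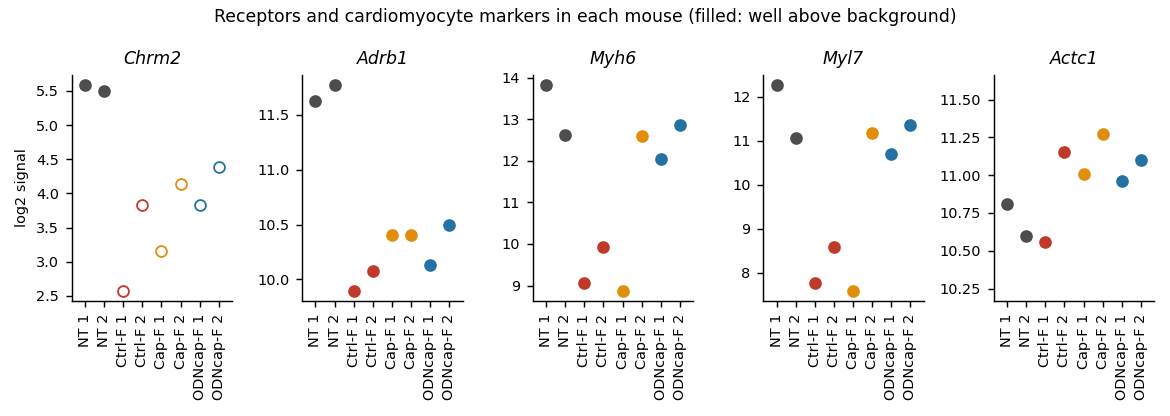
Log2 signal (y axes, each its own scale) of Chrm2, Adrb1 and the cardiomyocyte markers Myh6, Myl7 and Actc1 in each of the 8 mice (x axis), colored by group, with filled points well above background and open points not. Myh6 and Myl7 are high in NT, Cap-F mouse 2 and both ODNcap-F mice, Actc1 differs little between the groups, and Adrb1 is above 11 in NT alone.

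Hrh1, the Gq-coupled receptor through which histamine contracts airway muscle and opens vessel walls, read 4.74 and 4.86 (NT), 6.65 and 6.55 (Ctrl-F), 6.43 and 6.43 (Cap-F), and 6.82 and 6.64 (ODNcap-F). All 6 OVA mice were above both NT mice by more than 1 log2 unit. The order of the means was ODNcap-F (6.73 ± 0.13), Ctrl-F (6.60 ± 0.068), Cap-F (6.43 ± 0.00034) and NT (4.80 ± 0.083), and ODNcap-F and Ctrl-F overlapped. Hrh1 rose by 3.49-fold in Ctrl-F (log2 fold change 1.80, 95% interval 1.58 to 2.03, adjusted p = 4.31e-05), by 3.10-fold in Cap-F (1.63, adjusted p = 6.97e-05) and by 3.82-fold in ODNcap-F (1.93, adjusted p = 3.88e-05). With normexp the changes were 0.84, 0.70 and 0.85, all past the test. A second probe was above background on no array. The RefSeq table lists 4 starts for Hrh1 on chromosome 6, and the window of the first, with 71.7% G and C, is shown with its 2 GC boxes in capitals, as the receptor with the largest rise.

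Hrh1 promoter, chr6:114397686-114397985, plus strand: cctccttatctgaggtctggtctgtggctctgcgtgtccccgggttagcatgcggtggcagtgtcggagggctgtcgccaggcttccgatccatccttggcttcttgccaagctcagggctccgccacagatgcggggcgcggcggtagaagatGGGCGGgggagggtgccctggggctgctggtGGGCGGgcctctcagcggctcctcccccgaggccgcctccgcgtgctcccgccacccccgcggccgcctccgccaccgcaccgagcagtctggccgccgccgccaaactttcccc

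Cysltr1, the main receptor for leukotriene D4 and the target of montelukast, read 6.59 and 6.68 (NT), 7.51 and 7.69 (Ctrl-F), 7.58 and 7.47 (Cap-F), and 7.55 and 7.42 (ODNcap-F). Both NT mice lay below all 6 OVA mice, and the OVA groups overlapped one another. By mean the groups ran Ctrl-F (7.60 ± 0.13), Cap-F (7.53 ± 0.075), ODNcap-F (7.48 ± 0.090) and NT (6.63 ± 0.061), and neighbours among the OVA groups did not differ beyond their spread. Cysltr1 rose by 1.96-fold in Ctrl-F (log2 fold change 0.97, 95% interval 0.74 to 1.20, adjusted p = 0.000394), by 1.86-fold in Cap-F (0.90, adjusted p = 0.000618) and by 1.81-fold in ODNcap-F (0.85, adjusted p = 0.000693).

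Cysltr2, the second receptor for these leukotrienes, found on endothelium and on leukocytes, read 5.31 and 4.94 (NT), 6.11 and 6.04 (Ctrl-F), 6.01 and 5.46 (Cap-F), and 6.32 and 6.16 (ODNcap-F). The NT mice were the lowest, Cap-F mouse 2 was the nearest to them, and the Cap-F mice lay below both other OVA groups. By mean the groups ran ODNcap-F (6.24 ± 0.11), Ctrl-F (6.07 ± 0.048), Cap-F (5.74 ± 0.39) and NT (5.13 ± 0.26), and the gap from Ctrl-F to Cap-F was smaller than the spread in Cap-F. Cysltr2 rose by 1.93-fold in Ctrl-F (log2 fold change 0.95, 95% interval 0.44 to 1.45, adjusted p = 0.00884) and by 2.16-fold in ODNcap-F (1.11, adjusted p = 0.00493). Its change of 0.61 in Cap-F (95% interval 0.10 to 1.11, adjusted p = 0.0465) was past the test in 6 of 18 alternatives only, with an adjusted p of 0.0140 to 0.211. That call was lost with 75th percentile scaling, normexp, no filter, the 2 groups alone and the local-pooled-error test, and without each single mouse other than Cap-F mouse 2. The change was 0.43 without NT mouse 2, 0.80 without NT mouse 1, 0.33 without Cap-F mouse 1 and 0.88 once Cap-F mouse 2 was dropped, and stayed at 0.61 for each of the others. The call in Ctrl-F was lost without NT mouse 2 (0.77, adjusted p = 0.0519, against 0.00330 to 0.0519 over the alternatives). With normexp the changes were 0.36 (Ctrl-F), 0.19 (Cap-F) and 0.48 (ODNcap-F). The promoter window of Cysltr2 is shown with its match to the STAT6 motif in capitals, since STAT6 carries the signal of the allergic cytokines interleukin-4 and interleukin-13.

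Cysltr2 promoter, chr14:73049065-73049364, minus strand: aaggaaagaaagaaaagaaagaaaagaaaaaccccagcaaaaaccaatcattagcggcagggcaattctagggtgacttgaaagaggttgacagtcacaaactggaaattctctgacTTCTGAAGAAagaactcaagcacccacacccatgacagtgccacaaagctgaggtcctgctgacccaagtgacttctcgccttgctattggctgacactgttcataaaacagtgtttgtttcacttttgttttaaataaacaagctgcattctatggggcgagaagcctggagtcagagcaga

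Ednra, the Gq-coupled receptor for endothelin-1 on vascular and airway smooth muscle, read 11.84 and 11.96 (NT), 10.97 and 11.07 (Ctrl-F), 11.03 and 11.06 (Cap-F), and 10.99 and 11.07 (ODNcap-F). Both NT mice lay above all 6 OVA mice, whose values ran from 10.97 to 11.07. The order of the means was NT (11.90 ± 0.083), Cap-F (11.05 ± 0.022), ODNcap-F (11.03 ± 0.056) and Ctrl-F (11.02 ± 0.068), and the 3 OVA groups overlapped. Ednra fell by 1.84-fold in Ctrl-F (log2 fold change -0.88, 95% interval -1.07 to -0.69, adjusted p = 0.000266), by 1.81-fold in Cap-F (-0.86, adjusted p = 0.000352) and by 1.83-fold in ODNcap-F (-0.88, adjusted p = 0.000309). Its promoter window holds a STAT6 match as well, in capitals, and is shown because Ednra fell where Cysltr2 rose.

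Ednra promoter, chr8:77724403-77724702, minus strand: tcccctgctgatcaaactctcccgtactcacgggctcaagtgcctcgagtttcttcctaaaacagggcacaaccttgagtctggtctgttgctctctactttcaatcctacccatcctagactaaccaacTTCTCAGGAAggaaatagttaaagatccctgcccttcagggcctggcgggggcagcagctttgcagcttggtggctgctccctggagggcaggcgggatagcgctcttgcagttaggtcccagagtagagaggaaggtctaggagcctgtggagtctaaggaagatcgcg

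Bdkrb2, the bradykinin receptor that relaxes vessels through endothelial nitric oxide and makes them leak, read 10.56 and 10.38 (NT), 9.35 and 9.72 (Ctrl-F), 9.45 and 9.50 (Cap-F), and 9.33 and 9.61 (ODNcap-F). Both NT mice lay above all 6 OVA mice, and the OVA groups overlapped. By mean the groups ran NT (10.47 ± 0.13), then Ctrl-F (9.54 ± 0.26), then Cap-F (9.47 ± 0.038) and last ODNcap-F (9.47 ± 0.20), and neighbours among the OVA groups did not differ beyond their spread. Bdkrb2 fell by 1.91-fold in Ctrl-F (log2 fold change -0.93, 95% interval -1.32 to -0.55, adjusted p = 0.00330), by 2.00-fold in Cap-F (-1.0, adjusted p = 0.00284) and by 2.00-fold in ODNcap-F (-1.0, adjusted p = 0.00262). These values come from a probe whose identifier is that of a predicted RefSeq transcript. A second, dimmer probe, with the identifier of a curated transcript, read 5.91 and 5.44 (NT), 4.52 and 4.99 (Ctrl-F), 4.22 and 4.24 (Cap-F), and 4.03 and 4.87 (ODNcap-F). It lay lower in all 6 OVA mice than in NT, with a log2 fold change of -0.92 in Ctrl-F (adjusted p = 0.0452), and was above background in only 1 Cap-F and 1 ODNcap-F mouse, so no fold is given there.

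The comparisons among the OVA groups asked whether the feed changed the receptors under allergen, and no tested receptor passed the test in any of them. In limma, Cap-F against Ctrl-F gave 0 of the 7 receptors, where 1 of 37116 probes (0.00269%) was past the test. ODNcap-F against Ctrl-F gave 0 of 7, where 0 of 37116 probes (0%) were. ODNcap-F against Cap-F, which lie in 1 slide row, gave 0 of 7, where 1 of 37116 probes (0.00269%) was. The probe called in the first and the last of these is the same one, carries no gene name here and was above background in Cap-F alone. At an unadjusted p under 0.05 the receptor counts were 1 in Cap-F against Ctrl-F (Adrb1), beside 6022 of 37116 probes (16.2%), 0 in ODNcap-F against Ctrl-F, beside 2497 (6.73%), and 1 in ODNcap-F against Cap-F (Hrh1), beside 4810 (13%). The local-pooled-error test called 0 receptors in each, beside 477 probes (1.29%), 260 (0.701%) and 268 (0.722%) of 37116 in the same order.

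The intervals say how large a feed difference these 2 mice a group would still allow. Adrb1 in Cap-F exceeded Ctrl-F by 0.42 (95% interval 0.079 to 0.76, adjusted p = 0.243) and in ODNcap-F by 0.33 (-0.012 to 0.67, adjusted p = 0.746), with no overlap of the mice in either. With 1 array left out, the Adrb1 difference of ODNcap-F from Ctrl-F ran from 0.15 to 0.51. Hrh1 in ODNcap-F exceeded Cap-F by 0.30 (0.080 to 0.52, adjusted p = 0.299), and both ODNcap-F mice lay above both Cap-F mice. Cysltr2 in ODNcap-F exceeded Cap-F by 0.50 (-0.00064 to 1.01, adjusted p = 0.386), again with no overlap, and by 0.23 to 0.77 with 1 array left out. The muscarinic receptor Chrm3 differed by 0.066 between ODNcap-F and Ctrl-F (-0.25 to 0.38) and by 0.21 between ODNcap-F and Cap-F (-0.10 to 0.53). Both ODNcap-F mice were the higher in each, but ODNcap-F mouse 1 (4.6097) and Ctrl-F mouse 2 (4.6087) were nearly equal. With 1 array left out these 2 Chrm3 differences ran from 0.0045 to 0.13 and from 0.094 to 0.33.

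Ednra had the narrowest intervals, with differences of 0.0060 in ODNcap-F against Ctrl-F (-0.18 to 0.20) and -0.017 in ODNcap-F against Cap-F (-0.21 to 0.17). Cysltr1 differed by -0.12 in ODNcap-F against Ctrl-F (-0.35 to 0.12) and Bdkrb2 by -0.069 (-0.46 to 0.32). Hrh1 differed by 0.13 in that comparison (-0.094 to 0.35) and Cysltr2 by 0.17 (-0.34 to 0.67). Chrm2 was below background in all 6 mice, so no feed difference is given for it. In Cap-F against Ctrl-F the remaining 6 tested genes had differences from -0.34 for Cysltr2 to 0.023 for Ednra. A difference that misses the test is not shown to be absent, and for each of these 7 genes the interval of each feed difference reached no more than 1.01 log2 units from 0.

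**Figure D3:**
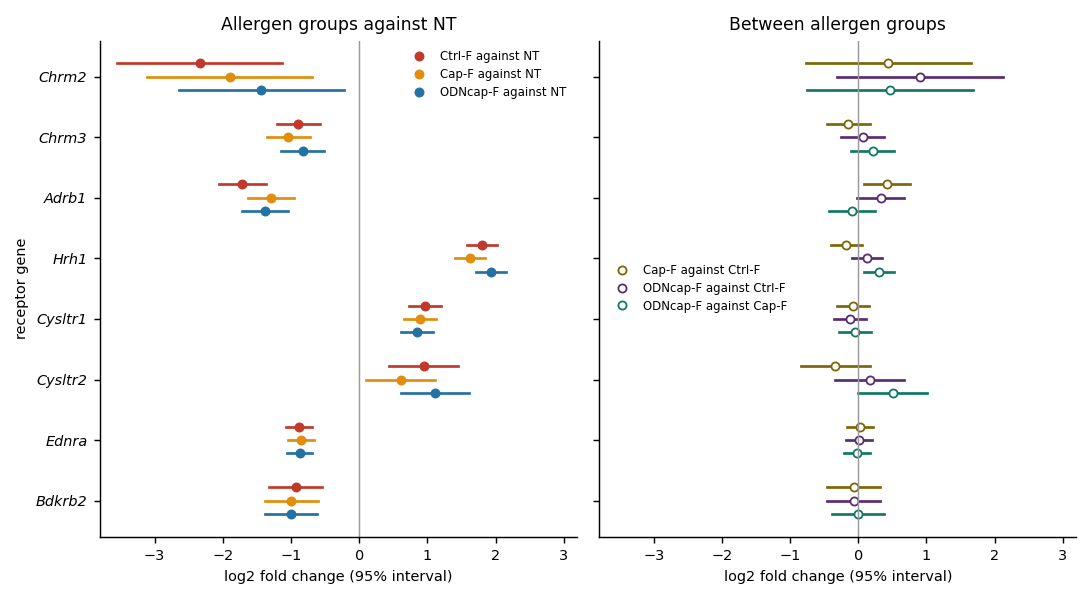
Log2 fold change (x axis) with its 95% interval from limma for the 8 tested receptor genes (y axis), for the 3 OVA groups against NT on the left and among the OVA groups on the right, with filled points past the test and open points not. Against NT all points are filled and those other than Chrm2 lie from -1.71 to 1.93, while on the right none is filled; Chrm2 was below background in all 6 OVA mice, so its points are no measured differences.

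Markers of many cell types also differed after allergen. Endothelial markers fell in 9 of 9 genes in all 3 comparisons with NT, with a summed signal of 110316 and 113209 in NT and between 44615 and 54354 in the 6 OVA mice, and Cldn5 the most abundant. Pericyte markers gave 5 lower and 1 higher of 6 in each comparison, with sums of 13733 and 15128 in NT and 7457 to 9470 after OVA, and Higd1b the most abundant. Ednra and Bdkrb2, which vessels express, were lower as well, but so were 6 of 6 alveolar type 1 markers in each comparison. The part of any of these cells in the receptor values was not tested. Smooth muscle, which also carries Ednra, had markers that went both ways. Of 9 tested smooth muscle markers, Ctrl-F had 1 higher and 2 lower in limma, while Cap-F and ODNcap-F each had 2 higher and 2 lower. The local-pooled-error test gave 2 higher and 5 lower in Ctrl-F, 3 higher and 2 lower in Cap-F, and 2 higher and 2 lower in ODNcap-F. The smooth muscle sums were 40593 and 43095 (NT), 33447 and 47426 (Ctrl-F), 43274 and 50898 (Cap-F), and 40283 and 47185 (ODNcap-F), so NT overlapped Ctrl-F and ODNcap-F and lay below Cap-F. Tagln had the brightest probe in NT and Acta2 after OVA, but in ODNcap-F mouse 2 Acta2 (13.974) and Tagln (13.968) were nearly equal. Lgr6, the tenth marker, was above background on no array.

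Inflammatory cell markers are given because leukocytes carry Hrh1, Cysltr1 and Cysltr2, which rose. Cysltr2 is also found on endothelium and Hrh1 acts on vessel walls, while endothelial markers fell in 9 of 9 genes. Eosinophil markers rose in 5 of the 5 genes above background on all arrays in each comparison with NT, with sums of 1873 and 1742 in NT and 5339 to 6942 after OVA, Siglecf the most abundant and the sixth, Epx, not above background in NT. Lymphocyte markers rose in 6 of 6, from 7617 and 5862 to between 120990 and 139668, with Ms4a1 the most abundant in NT and Jchain after OVA. Macrophage markers gave 4 higher and 2 lower in Ctrl-F and 3 higher and 2 lower in the other comparisons, with sums of 8674 and 7967 in NT and 22336 to 27188 after OVA and Cd68 the most abundant. Mast cell markers gave 3 higher and 1 lower of 6 in each, while their sum was 4754 and 6571 in NT and 3357 to 3987 after OVA, with Kit, which fell, the most abundant. No marker of any list passed the limma test among the OVA groups. The local-pooled-error test called none of the eosinophil, macrophage and lymphocyte markers above background on all arrays there, and 1 mast cell marker in each of the comparisons with Cap-F. The part of these cells in the receptor values was not tested.

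For Ctrl-F, then Cap-F, then ODNcap-F, the other lists were as follows. Alveolar type 1 markers fell in 6 of 6 in each comparison with NT (most abundant Ager), and mucous cell markers rose in 4 of the 4 above background on all arrays (most abundant Muc5b in NT and Clca1 after OVA). Alveolar type 2 markers gave 3, 4 and 4 of 6 lower in the comparisons taken in that order (most abundant Sftpc), and club and ciliated cell markers gave 3, 2 and 2 of 6 lower (most abundant Scgb1a1). These are limma counts, and the local-pooled-error test called 4, 4 and 4 alveolar type 2 markers and 5, 4 and 2 club and ciliated cell markers lower. Fibroblast markers gave 2 higher in each and 4, 3 and 3 lower of 6 (most abundant Pdgfra in NT and Col1a1 after OVA). Of the 3 adipocyte markers above background on all arrays 2, 1 and 1 were lower, with sums over all 5 of 4379 and 3180 (NT), 309 and 544 (Ctrl-F), 354 and 1978 (Cap-F), and 1511 and 2851 (ODNcap-F), and Cfd the most abundant in all but Ctrl-F mouse 1. Among the OVA groups, where limma called none, the local-pooled-error test called 3 and 4 of 4 mucous markers higher in Cap-F and ODNcap-F than Ctrl-F. It called 1 and 2 of 3 adipocyte markers higher in these, and 2 of 3 higher in ODNcap-F than Cap-F. It called 1 fibroblast marker higher in each particle feed than in Ctrl-F, and 1 smooth muscle and 1 club and ciliated marker higher in Cap-F than Ctrl-F. The shares of all named genes that it called higher stand with the cardiomyocyte markers above. Lung was thus represented by its defining markers, Ager, Sftpc and Scgb1a1 among them.

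Around the 9 receptors, 4 lists of pathway genes give the rest of the system, counted over the genes well above background on all 8 arrays. Of 37 such genes among other bronchomotor and mediator receptors, 13 were higher and 13 lower in Ctrl-F against NT (median log2 fold change 0.070), beside 4248 higher (28.0%) and 5682 lower (37.4%) of 15181 named genes, whose median was -0.086. Of 21 ligands and enzymes that make or remove them, 7 were higher and 9 lower (median -0.13). Of 33 genes of Gq and G12/13 signalling and contraction, 5 were higher and 18 lower (median -0.44). Of 35 genes of Gs and Gi signalling and receptor desensitization, 6 were higher and 23 lower (median -0.55). In Cap-F against NT the 4 lists gave, in this order, 14, 6, 5 and 6 higher and 12, 9, 17 and 21 lower, beside 25.8% higher and 35.3% lower of all named genes. In ODNcap-F they gave 12, 7, 5 and 6 higher and 12, 9, 18 and 22 lower, beside 27.1% and 35.6%. Among the OVA groups no list gene passed the limma test, and the local-pooled-error test called at most 1 gene of a list in each comparison.

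**Figure D4:**
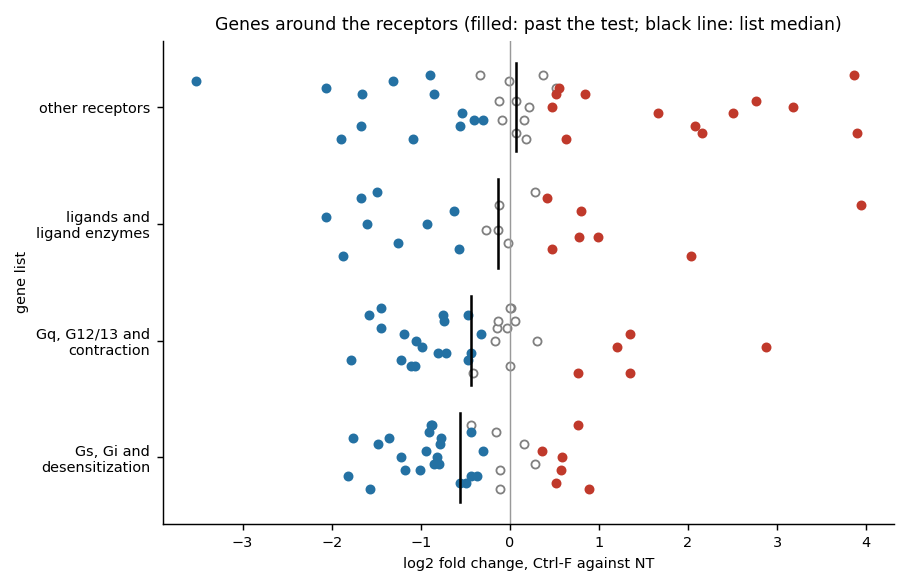
Log2 fold change in Ctrl-F against NT (x axis) of each gene well above background on all arrays in the 4 pathway lists (y axis, with vertical scatter for legibility only), filled where past the test and red or blue for higher or lower; a black line marks each list's median. The receptor list has 13 genes higher and 13 lower about a median of 0.070, and the Gs and Gi list sits to the left with 23 of 35 genes lower.

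Among the other receptors, Adra2a, a Gi-coupled adrenergic receptor, read 5.62 and 6.07 in NT and between 9.62 and 10.49 in the 6 OVA mice, and rose by 3.90 in Ctrl-F (adjusted p = 0.000113). Ptgdr, a prostaglandin D2 receptor, was below background in NT, entered the test only through the OVA groups and was at least 6.37-fold higher in Ctrl-F. The complement receptor C3ar1 rose by 3.87, the serotonin receptor Htr2b by 3.18, the platelet-activating factor receptor Ptafr by 2.76 and the adenosine receptor Adora3 by 2.51. At the low end, the beta-3 adrenergic receptor Adrb3 read 10.89 and 11.27 (NT), 7.55 and 7.56 (Ctrl-F), 8.24 and 8.32 (Cap-F), and 7.99 and 8.39 (ODNcap-F). The endothelin B receptor Ednrb read 10.01 and 10.15 in NT and between 7.82 and 8.43 after OVA, and its log2 fold change of -1.90 in Ctrl-F had the sign of that of Ednra. The prostaglandin F receptor Ptgfr had a log2 fold change of -2.07. Adra1d and F2rl1 entered the test only through NT, where they read 4.06 and 4.93, and 5.95 and 3.90. By group mean they were at least 1.39-fold and 1.88-fold lower in Ctrl-F, with the Ctrl-F mice set to their dimmest detectable signal (mean 4.02). NT mouse 2 lay below that level for F2rl1, and NT mouse 1 lay close to it for Adra1d. Each bound thus rests mainly on the other NT mouse. Also lower was the muscarinic receptor Chrm4, by at least 3.59-fold in Ctrl-F, where 1 mouse was below background, but Chrm4 did not pass the test in Cap-F (-0.44, adjusted p = 0.359) or ODNcap-F (-0.91, adjusted p = 0.0815), and its differences among the OVA groups did not pass either.

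Among ligands and their enzymes, Kng1, a precursor of bradykinin, read 3.97 and 4.26 in NT and between 7.26 and 8.88 in the 6 OVA mice (log2 fold change 3.94 in Ctrl-F, adjusted p = 0.000303), and Klk1, a kallikrein that frees kinins, rose by 2.03. Klkb1, another kallikrein, read 6.61 and 6.77 in NT and 7.10 and 5.74 in Ctrl-F, which overlapped. Mme, a peptidase that breaks down bradykinin and endothelin, had a log2 fold change of -1.67. Edn1, the precursor of endothelin-1, read 10.78 and 11.09 in NT and between 8.54 and 9.26 after OVA (-2.07 in Ctrl-F, adjusted p = 0.000462). For leukotrienes, Alox5 and Alox5ap, which start their synthesis, rose by 0.99 and 0.80, while Dpep1, a dipeptidase that turns leukotriene D4 into E4, had a log2 fold change of -1.60. Bche, a cholinesterase that breaks down acetylcholine, read 9.01 and 8.99 in NT and between 6.98 and 7.37 after OVA (-1.87 in Ctrl-F, adjusted p = 7.91e-05).

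Downstream of the Gq-coupled receptors, Rgs5, a brake on Gq and Gi signalling, read 5.95 and 6.07 in NT and between 8.75 and 9.01 in the 6 OVA mice (log2 fold change 2.87 in Ctrl-F, adjusted p = 1.75e-05). Rgs4, another such brake, rose by 1.34, the kinase Prkcd by 1.35, the phospholipase Plcb2 by 1.20 and Cd38, which makes cyclic ADP-ribose, by 0.76. Lower were the calcium-permeable channel Trpc6 (-1.19), the myosin phosphatase inhibitor Ppp1r14a (-1.58), the kinases Prkce (-1.45) and Prkca (-1.22) and the guanine nucleotide exchange factor Arhgef12 (-1.44). Rgs5 and Trpc6 also stand in the pericyte list, and Ryr2 in the cardiomyocyte list.

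On the Gs and Gi side, Akap12, a scaffold for protein kinase A at beta-adrenergic receptors, read 13.72 and 13.62 in NT and between 11.67 and 12.04 after OVA (log2 fold change -1.82 in Ctrl-F, adjusted p = 0.000128). Gnao1 (-1.76), the adenylyl cyclase Adcy4 (-1.57) and the phosphodiesterases Pde3a (-1.48) and Pde4b (-1.35) were lower with it. Kcnj5, a subunit of the potassium channel that heart Chrm2 opens, read 5.76 and 4.77 (NT), 1.72 and 2.55 (Ctrl-F), 1.75 and 4.53 (Cap-F), and 4.20 and 4.79 (ODNcap-F). It entered the test only through NT, was at least 2.38-fold lower in Ctrl-F, and was past the test in neither other group. The genes that end receptor signals were split: the receptor kinases Grk6 and Grk2 rose by 0.77 and 0.58 and the arrestin Arrb2 by 0.57, while Grk5 (-0.94), Grk3 (-0.44), Grk4 (-0.44) and the arrestin Arrb1 (-0.87) were lower. Pde3b rose by 0.88, Adcy7 by 0.52 and Prkar1a by 0.37.

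The RefSeq promoter table lists 7 of the 9 genes, with 10 windows of 300 bases. The search covered 5 motifs on both strands: the STAT6 motif (in 6.95% of the 32851 windows searched), the GC box (35.7%), the cAMP response half-site (20.8%), the AP-1 motif (7.81%) and the CArG box of smooth muscle genes (1.63%). The windows searched leave out part of the promoter table. STAT6 matches were found in Cysltr2 and Ednra, 1 in each. GC boxes were found in Adrb1 (1), Chrm2 (1) and the first and second starts of Hrh1 (2 and 5), whose windows overlap. Adrb1 held 1 cAMP response half-site and the fourth start of Hrh1 held 1 AP-1 motif. No window of Chrm3 or Bdkrb2 held any of the 5 motifs, and no receptor window held a CArG box. Such matches describe the letters in these windows and nothing about binding.

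For each receptor above background on all arrays, the 2 genes with the most similar pattern among 16564 others were found by Pearson r over the 8 arrays. This likeness mostly carries the split between the 2 NT and the 6 OVA mice, which most genes here share, and has no test. Chrm3 was nearest to Tsc22d3 (r = 0.999) and Glb1l2 (0.995), Adrb1 to Prss23 (0.996) and Nedd4 (0.996), Ednra to Tspan7 (0.999) and Rbms2 (0.999), and Bdkrb2 to Card10 (0.996) and Nos3 (0.996). Hrh1 was nearest to Evi5l (0.998) and Saa3 (0.998), Cysltr1 to Rimkla (0.998) and Litaf (0.998), and Cysltr2 to Coa7 (0.978), after a gene not above background in NT. Nos3, the endothelial nitric oxide synthase, read 11.89 and 11.61 in NT and between 10.51 and 10.90 after OVA, and Saa3, an acute-phase protein, read 8.79 and 8.79 in NT and between 13.96 and 15.17. Prss23 read 11.36 and 11.56 (NT), 9.78 and 10.09 (Ctrl-F), 10.24 and 10.35 (Cap-F), and 10.07 and 10.43 (ODNcap-F), so Ctrl-F mouse 1 was the lowest, as in Adrb1.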

How the data were processed

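The single-color arrays were scanned for the authors and, per the file headers, Agilent Feature Extraction 11.0 (header entry 11.0.1.1) turned each spot into a background-subtracted processed signal intensity. The deposited log2 table holds values that the authors log-transformed and quantile-normalized after a filter of their own; its 8 columns have medians of 8.55 each, so they are matched, and it correlates with the values used here at r = 1.00 over 32312 probes.

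Here the processed signals of 62976 spots were read, 59305 of them not controls. Outlier-flagged spots were set missing, spots of a probe were averaged to 56605 probes, log2 values were quantile-normalized over the 8 arrays, and 37116 probes were kept. A fit over the 4 groups used limma with moderated variances (prior degrees of freedom 1.96), Benjamini-Hochberg adjustment and a cut at 0.05. Names come from a RefSeq reference (GRCm38.p6, used for names and promoter windows only), which named 32994 probes (58.3%) and 22911 genes, of which 16565 were tested. A gene is its brightest probe.

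Alternatives were 75th percentile scaling, normexp with offset 50 (run on the median spot signal), the deposited table, no filter, a filter over all arrays, replicate number as a block (which marks no known pairing), an intensity trend, only the 2 groups compared, leaving out each array, the mean of a gene's probes, a local-pooled-error test rebuilt here, a fold over 2, and unadjusted p. The 9 receptors, 4 pathway lists and 15 marker lists were chosen by name, with earlier results of the series known. The results of 1 marker list and of some single genes are not reported here. A bound takes, for each array of a group below background, the higher of the lowest signal well above background and the probe's own. The code was also run on simulated data with known answers. Software was R 4.3.3, limma 3.58.1, the data.table package in version 1.17.8, jsonlite 2.0.0 and Python 3.11.15.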

Additional observations from a re-analysis of the deposited data

How the results depend on the processing

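With an added fold over 2, the receptor genes past the test numbered 2 (Ctrl-F against NT), 3 (Cap-F) and 4 (ODNcap-F) of 7 without Chrm2. The shares of all probes were 22.1%, 19.1% and 20.0%. Chrm2 entered the test through NT alone and had to differ, so its calls are no support. Counting it would give 3 (Ctrl-F against NT), 4 (Cap-F) and 5 (ODNcap-F), and nothing is drawn from those numbers. By unadjusted p 1 receptor gene was past for Cap-F against Ctrl-F, as was 1 for ODNcap-F against Cap-F, beside the shares given above. With an array left out, the 7 genes without Chrm2 gave 6 to 7, 6 to 7 and 7 past the test against NT, beside 48.0% to 60.7%, 42.7% to 55.6% and 45.8% to 56.5% of all probes. Among the feeds they gave 0, beside at most 0.293%. Only log2 fold changes among the feeds turned sign, none of them past the test in either setting.

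With 75th percentile scaling these were Ednra -0.022 (Cap-F against Ctrl-F), -0.0032 (ODNcap-F against Ctrl-F) and 0.019 (ODNcap-F against Cap-F), and Bdkrb2 0.0084 (ODNcap-F against Cap-F). With normexp they were Cysltr1 0.060 (Cap-F against Ctrl-F), Ednra -0.035 (ODNcap-F against Ctrl-F) and Bdkrb2 0.0062 (ODNcap-F against Cap-F), and with the mean of a gene's probes Bdkrb2 0.11 (ODNcap-F against Cap-F).

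With an array left out, values in Cap-F against Ctrl-F ran from -0.16 to 0.016 for Cysltr1, -0.25 to 0.12 for Bdkrb2, -0.19 to 1.07 for Chrm2 and -0.025 to 0.071 for Ednra. In ODNcap-F against Ctrl-F they ran from -0.25 to 0.12 for Bdkrb2 and -0.042 to 0.054 for Ednra. Without turning sign, they ran there from -0.21 to -0.027 for Cysltr1, 0.038 to 0.22 for Hrh1 and 0.087 to 0.24 for Cysltr2. In ODNcap-F against Cap-F they ran from -0.11 to 0.020 for Cysltr1, -0.14 to 0.14 for Bdkrb2, -0.026 to 0.96 for Chrm2, -0.27 to 0.092 for Adrb1 and -0.056 to 0.023 for Ednra. The Chrm2 ranges lie between signals below background and measure no feed difference. The cause was not tested.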
